A study of Mus musculus with 12 samples.

Results

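The replication-dependent histone genes lie in clusters and supply the bulk of new histone protein when cells copy their DNA. All genes of the count files whose GRCm38 symbol begins with Hist1h, Hist2h, Hist3h or Hist4h were taken, which gave 70 of 55487 genes. Of these, 67 are annotated as protein coding and 3, Hist1h2aj, Hist1h2al and Hist3h2bb-ps, as pseudogenes. The families held 6 genes of linker histone H1, 20 of H2A, 19 of H2B, 12 of H3 and 13 of H4. Chromosome 13 carries 56 of them (Hist1), chromosome 3 carries 10 (Hist2), chromosome 11 carries 3 (Hist3) and chromosome 6 carries 1 (Hist4). Newer nomenclature calls the same genes H1f, H2ac, H2bc, H3c and H4c, and H1f0 and H1fx, which have an H1f name but are not of the clusters, were not included.

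The series measured RNA in primary mouse embryonic fibroblasts (MEF), cultures grown from E13.5 embryos whose Htt alleles are floxed (HTTfl/fl in every sample). HTT-deleted cells had received the lentivirus LV-Cre-GFP, whose Cre recombinase removes the floxed part of Htt, the huntingtin gene. Control cells had received another lentivirus, H2B-eGFP, which encodes a histone H2B fused to a green fluorescent protein. Cells were collected 7 days after transduction, and 1 part in 15 of each suspension gave total RNA while ribosomes were purified from the remainder for ribosome-associated RNA. Each of the 4 groups had 3 libraries, and the labels count different primary cultures or separate passages as replicates, so p-values measure the spread between such cultures. The control vector encodes H2B and the Cre vector does not, so the effect of the vector and that of Htt deletion cannot be told apart in any comparison of HTT-deleted with control cells. Which promoters drive the vectors' genes was not known from the labels. The sequence of the vector's H2B was not available either. Whether reads of the vector's transcript were counted under Hist1h2bf, Hist1h2bm or other H2B genes was therefore not tested. Counts given for these genes in control cells may include such reads.

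Replication-dependent histone transcripts rise in S phase and, unlike other messenger RNAs, end in a conserved stem-loop in place of a poly(A) tail. The stem-loop binding protein Slbp holds this end through processing, export and translation, and Npat switches the clusters on in S phase. H2A, H2B, H3 and H4 form the core that DNA wraps around, and H1 sits on the linker DNA between cores. The labels do not say whether poly(A)-selected or rRNA-depleted RNA went into the libraries.

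The stem-loop is shown for the members on which the results turn, because it defines the class and is the part of the transcript most alike among them. The motif searched was GGNNNTNTNNANNNCC, on the transcript strand, in the first 100 bases after the stop codon of the GRCm38 transcripts, and capitals mark the match. The last name below is an H4 gene, in which other letters make the stem.
Hist1h2bf: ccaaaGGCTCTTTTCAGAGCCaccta
Hist1h2bm: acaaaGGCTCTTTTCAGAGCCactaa
Hist1h2bb: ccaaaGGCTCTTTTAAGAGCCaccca
Hist1h1c: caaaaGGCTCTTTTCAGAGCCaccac
Hist2h3c2: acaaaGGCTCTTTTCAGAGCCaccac
Hist1h4i: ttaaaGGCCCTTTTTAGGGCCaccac
It was found in 44 of the 70 members. In 18 the annotated 3′ UTR was absent or too short to search, or no stop codon was annotated, and 8 had a longer 3′ UTR without the match. Among 47319 transcripts of other genes, 268 held it (0.566%). Hist1h2bc, the most counted H2B gene, was among the 8 whose annotated end held no match.

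The coding sequences of the H2B genes differ at few positions, which bears on how reads could be assigned among them. Bases 1 to 80 of 381 are shown for 3 genes that moved together between the groups and for Hist1h2bc, with capitals at each base that differs from the majority of the 14 Hist1 H2B genes compared.
Hist1h2bf: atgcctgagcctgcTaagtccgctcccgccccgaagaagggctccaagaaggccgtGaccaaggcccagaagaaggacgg
Hist1h2bm: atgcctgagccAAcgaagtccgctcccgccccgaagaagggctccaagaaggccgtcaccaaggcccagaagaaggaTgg
Hist1h2bb: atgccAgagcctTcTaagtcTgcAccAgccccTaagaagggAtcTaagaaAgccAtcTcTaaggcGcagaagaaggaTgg
Hist1h2bc: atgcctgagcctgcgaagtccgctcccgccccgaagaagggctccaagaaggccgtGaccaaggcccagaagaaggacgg
Over the whole coding sequence, Hist1h2bf differed from the majority at 5 bases, Hist1h2bm at 8, Hist1h2bb at 19 and Hist1h2bc at 3. Hist1h2bf and Hist1h2bm differed from each other at 11 bases (97.1% identity). Hist1h2bf differed from Hist1h2bc at 6 bases, fewer than it differed from Hist1h2bm. Over the whole transcripts, 93.4% of the 100-base words of Hist1h2bm occurred in no other annotated gene, against 53.6% for Hist1h2bf, 67.2% for Hist1h2bb and 74.6% for Hist1h2bc. For 50-base words the shares were lower, at 56.2% for Hist1h2bm, 34.2% for Hist1h2bf, 59.9% for Hist1h2bb and 69.4% for Hist1h2bc. The H2B of the control vector was not among the sequences compared.

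Hist1h2bf lies on the minus strand at chr13:23573736-23574196, Hist1h2bm on the plus strand at chr13:21722044-21722567, and Hist1h2bb on the plus strand at chr13:23746734-23747241, each a gene of 1 annotated transcript. Hist1h2bf starts 184 bases from the oppositely oriented H2A gene Hist1h2ad, Hist1h2bm 235 bases from the pseudogene Hist1h2aj, and Hist1h2bb 1131 bases from the H3 gene Hist1h3c. The bases before the RefSeq start of Hist1h2bf (GRCm38.p6, chr13:23574208-23574457, minus strand) are shown because they hold most of the gap between it and Hist1h2ad, and they run on into the start of Hist1h2ad. Capitals mark CCAAT and TATAAA on either strand.
Hist1h2bf upstream: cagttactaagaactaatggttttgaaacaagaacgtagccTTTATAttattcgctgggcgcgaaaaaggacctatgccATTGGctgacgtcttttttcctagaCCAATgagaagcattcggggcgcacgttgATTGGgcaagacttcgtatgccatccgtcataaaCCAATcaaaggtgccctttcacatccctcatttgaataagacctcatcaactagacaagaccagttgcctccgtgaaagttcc
This stretch held CCAAT 4 times and TATAAA 1 time, the latter in the portion that lies within Hist1h2ad. In the RefSeq promoter table (250 bases before to 50 after each start), 62 members matched with 63 promoters. CCAAT occurred in 54 of them (85.7%) and in 37.4% of all 32851 promoters, and TATAAA in 35 (55.6%) against 13.6%. These matches describe the letters of the window only.

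Gene counts summed to 16789356 to 30571501 per library. Levels are CPM, counts scaled to a common library size, here by TMM, edgeR's correction for library composition, with 3 counts corresponding to 0.0980 to 0.186 CPM. As a check of the labels, Htt was at 58.9, 45.7 and 64.5 CPM in total RNA of controls and at 15.5, 10.6 and 10.7 in HTT-deleted cells, and at 22.6, 20.1 and 31.9 against 12.8, 5.04 and 3.98 in ribosome-associated RNA. The groups did not overlap in either fraction, which goes with the labels. Markers of fibroblasts were high throughout, with 12 genes summing to 26718 to 54627 CPM over the 12 libraries. Markers of macrophages were present too: their 18 genes summed to 792 to 3259 CPM in total RNA of controls and 1819 to 7539 in HTT-deleted cells, and to 1197 to 4926 against 2808 to 8495 in ribosome-associated RNA. All 18 lay above 0 in both comparisons, with median log2 fold changes of 1.05 and 0.74, and the part of this cell mixture in the histone values was not tested. In bulk RNA, fewer cells of a type and less RNA per cell cannot be told apart. Total HTT-deleted replicate 1 stood apart. Its deviation from the mean of its fraction went with gene length at a Spearman correlation of -0.49 across 13529 genes (genes are not replicates), against 0.16 to 0.33 in the other total libraries, so that short genes read high in it. Ribosome control replicate 1 leaned the same way, at -0.39 against 0.03 to 0.14. Most histone genes are short, and values without the first of these libraries are given below for the members in which they differ most. Values without the second are given for Hist1h2bc, Hist1h1c, Hist1h4i and Hist2h4.

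Few of the 70 genes carried most of the reads. Hist1h1c, a linker histone gene, took 38351 of the 73164 counts of all members over the 12 libraries (52.4%). Hist1h2bc took 16449, and this pair together held 74.9%. Next came Hist1h4i with 3374 counts, Hist1h2al with 2573, Hist1h2bf with 1755, Hist3h2a with 1225, Hist2h3c2 with 1165, Hist1h4h with 1071 and Hist1h2bm with 841. At the other end, 5 members, Hist1h2aa, Hist1h2ba, Hist1h2br, Hist2h2aa1 and Hist2h3c1, had no count in any library and 16 had at most 10 counts in all. At least 1 count in every library was seen for 32. A mean of at least 1 CPM in total RNA of controls was reached by 17.

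Levels between genes were compared per kilobase of annotated exon. In total RNA of controls, Hist1h1c was highest at 74.0 mean CPM per kilobase, then Hist1h2bc at 39.9, Hist1h2bf at 21.8, Hist1h2al at 21.7, Hist1h4i at 15.3, Hist1h2bm at 9.21 and Hist1h4h at 8.00. Hist2h2aa2, Hist2h3c2, Hist1h3d and Hist1h2ad followed at 3.30, 3.15, 2.44 and 2.03. The Hist1h2bf and Hist1h2bm places hold for the mean only, since these genes differed widely between control cultures. Hist1h1c lay above Hist1h2bc in each of the 3 libraries, and from Hist1h2bc down to Hist1h4h the ranges of neighbours in this order overlapped.

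**Figure D1:**
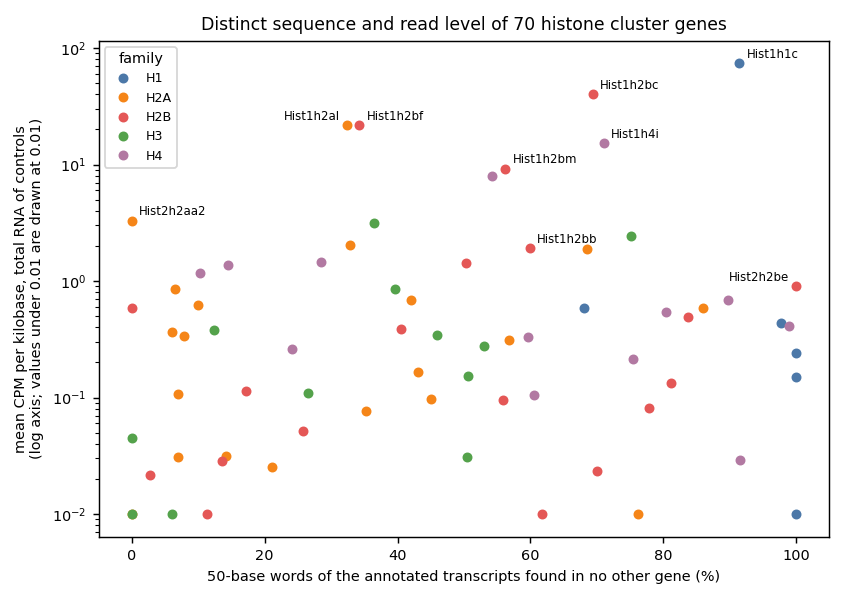
Share of a gene's 50-base words that occur in no other annotated gene (%, horizontal axis) against its mean CPM per kilobase in total RNA of controls (log axis, n = 3 libraries), with 1 point for each of the 70 histone cluster genes, coloured by family. Hist1h1c is highest, at 74.0, and genes with a share near 0 are mostly low, with Hist2h2aa2 at 3.30 as an exception.

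Several members share sequence with other genes, or bases with an overlapping annotated gene, so that their counts are uncertain. No 50-base word of Hist2h2aa1, Hist2h2aa2, Hist2h2bb, Hist2h3b or Hist2h3c1 was found in them alone. Overlaps were taken between whole gene spans, introns included. Overlapping genes span all bases of Hist2h2bb and Hist2h3b (Gm20628, antisense) and of Hist2h3c1 (Gm20634, same strand). Antisense genes also span all bases of Hist2h2aa1 (Gm20633), Hist2h2aa2 (Gm20632) and Hist1h4b (4930558J22Rik). Hist2h2bb is spanned on its own strand too, by Gm42743. Only 2.68% of the 50-base words of Hist1h2bq were distinct, the remainder being shared with Hist1h2br. Hist1h2al lies apart from the cluster, at chr13:51202727-51203065, and 65.5% of its words occur in Hist2h2aa2, so its level is uncertain. Reads without a unique alignment, 826161 to 1467118 per library, were counted under no gene. Shared sequence can thus lower a member's count, and whether it also added reads of other genes was not tested. Hist3h2a shares its strand with an overlapping gene, Trim17, over 2146 bases, and Hist1h1e overlaps Hist1h2be on the same strand by 496 bases. Libraries were stranded per the labels, but the labels do not give the strand setting of the counting. Reads of antisense genes over the members therefore cannot be set apart.

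HTT-deleted and control cells were first compared for Hist1h2bf and Hist1h2bm, H2B genes that encode a core histone. In total RNA, Hist1h2bf had 319, 378 and 28 counts in control replicates 1 to 3 (10.4, 18.7 and 1.03 CPM) and 0, 1 and 2 counts in HTT-deleted replicates 1 to 3. In ribosome-associated RNA the controls had 270, 685 and 65 counts (16.7, 31.4 and 2.12 CPM) and the HTT-deleted libraries 0, 7 and 0. Every control library lay above every HTT-deleted library of its fraction, and control culture 3 was low in both fractions.

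Hist1h2bm followed the same cultures. It had 149, 180 and 19 counts in total RNA of controls (4.88, 8.90 and 0.70 CPM) against 0, 0 and 2. On ribosomes it had 135, 335 and 20 counts (8.37, 15.4 and 0.65 CPM) against 0, 1 and 0. Here too the groups did not overlap, and culture 2 was highest and culture 3 lowest among controls.

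The difference spanned a wide range between cultures. Where the HTT-deleted count was 0, only the lower end of the 95% exact interval of control over HTT-deleted is given. For Hist1h2bf in replicate 1 it was 51.0-fold in total RNA and 98.3-fold on ribosomes. In culture 2 the ratio was 343 (61.1 to 13572) in total RNA, from 378 counts against 1. On ribosomes of culture 2 it was 109 (52.4 to 271). In culture 3 the ratio in total RNA was 9.72 (95% exact interval 2.45 to 84.2, counting error only), from 28 against 2 counts. On ribosomes of culture 3 the lower end was 15.2-fold. For Hist1h2bm the lower ends of replicate 1 were 23.6-fold in total RNA and 48.8-fold on ribosomes. In culture 2 its lower end was 43.8-fold in total RNA, and its ratio on ribosomes was 372 (66.3 to 14723). Its ratio of culture 3 in total RNA was 6.59 (1.59 to 58.4). So the low control culture had a smaller excess in total RNA, and its interval reaches that of the other cultures.

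Both genes kept nearly the same ratio to each other in control cultures 1 and 2. Hist1h2bf had 2.14 and 2.10 times the counts of Hist1h2bm in total RNA of cultures 1 and 2, and 2.00 and 2.04 times on ribosomes, where the 95% interval of the last was 1.79 to 2.34. Culture 3, with the fewest counts, gave 1.47 (0.79 to 2.79) and 3.25 (1.94 to 5.67). Both intervals include the other 4 ratios and overlap each other, but neither includes the other ratio of culture 3. The level of the pair thus changed by an order of magnitude between cultures. Its proportion was steady in cultures 1 and 2, and culture 3 had too few counts to show whether it stayed so.

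**Figure D2:**
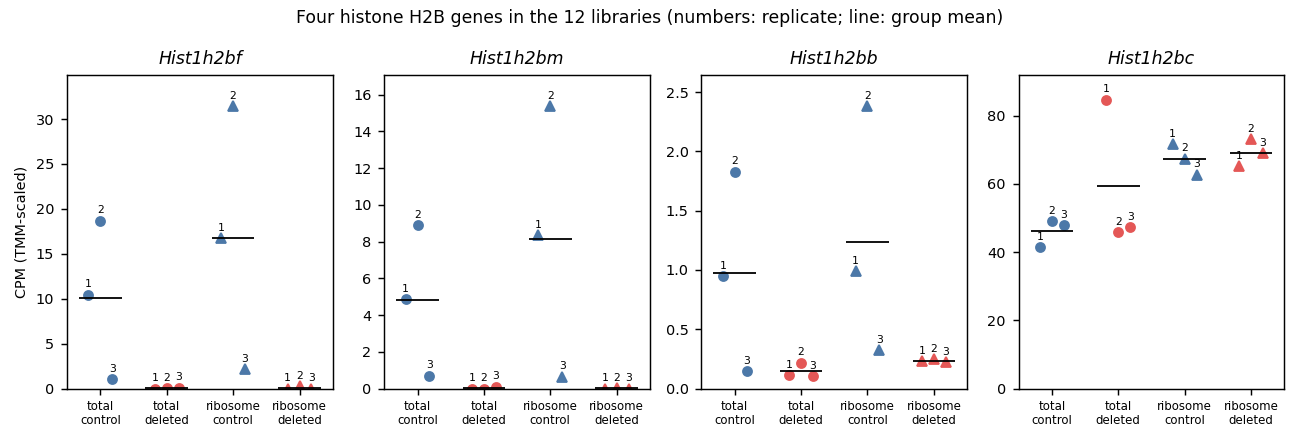
CPM (vertical axes, TMM-scaled, each from 0 on its own scale) of the H2B genes Hist1h2bf, Hist1h2bm, Hist1h2bb and Hist1h2bc in the 4 groups of libraries, with points numbered by replicate and a line at the group mean (n = 3). The first 2 genes lie near 0 in all HTT-deleted libraries and differ widely among controls, Hist1h2bb is lowest among controls in replicate 3, and Hist1h2bc lies at 41.5 to 84.7 in total RNA with the top value in HTT-deleted replicate 1.

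For Hist1h2bf the log2 fold change was -7.37 (SE 1.39) in total RNA and -7.36 (SE 1.45) in ribosome-associated RNA, and for Hist1h2bm it was -6.83 (SE 1.37) and -8.73 (SE 1.70). The gap between fractions was not called for either gene (edgeR, 0.03, SE 0.92, for Hist1h2bf and -1.87, SE 3.28, for Hist1h2bm). Fitted values of genes at 0 depend on the prior count and are no bounds. Without regard to pairing, edgeR's quasi-likelihood test called neither (adjusted p = 0.978 in total RNA and 1.00 on ribosomes for both genes, n = 3 and 3; unadjusted p = 0.0013 to 0.0020). With the replicate number as a block, both passed in ribosome-associated RNA (edgeR adjusted p = 2.9e-10 for Hist1h2bf and 6.3e-10 for Hist1h2bm), where 0.233% of 14588 genes were called lower. In total RNA they did not pass with the block (edgeR adjusted p = 0.902 for both), but DESeq2 called both (adjusted p = 9.9e-06 and 0.0020), with Htt as the only other gene. On ribosomes DESeq2 called Hist1h2bm (adjusted p = 0.012) and not Hist1h2bf. The direction was the same in every pair of every fraction.

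Another H2B gene, Hist1h2bb, had the same order of control cultures at a lower level. This order, culture 2 highest and culture 3 lowest, was not particular to these 3 genes. The 60 members besides them and the 7 most counted others summed to 24.4, 32.2 and 19.6 CPM in total RNA of controls. On ribosomes of controls these 60 summed to 20.8, 25.99 and 18.4 CPM. Hist1h1c had the order in both fractions, and Hist1h2bc and Hist1h4i had it in neither. In total RNA Hist1h2bb had 29, 37 and 4 counts in controls and 2, 4 and 2 in HTT-deleted cells. On ribosomes it had 16, 52 and 10 against 5, 6 and 6. Groups did not overlap on ribosomes, and in total RNA only the 4 counts of control replicate 3 (0.15 CPM) fell within the 0.11 to 0.22 CPM of the HTT-deleted libraries. Summed over replicates, controls had 6.21 times the level of HTT-deleted cells in total RNA (95% exact interval 2.98 to 14.9) and 4.90 times on ribosomes (2.87 to 8.83), both for counting error only. It did not pass the filter on low counts in either comparison and was singled out after its values were seen. In the authors' deposited table it had log2 fold changes of -2.57 (false discovery rate 3.4e-05) in total RNA and -2.25 (9.0e-08) on ribosomes.

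Hist1h2bc, whose coding sequence is among the nearest to that of Hist1h2bf, was at 41.5, 49.1 and 48.0 CPM in total RNA of controls and 84.7, 45.9 and 47.3 in HTT-deleted cells. On ribosomes it was at 71.8, 67.5 and 62.8 against 65.3, 73.1 and 69.1 CPM, with a log2 fold change of 0.04 (SE 0.09). Its groups overlapped in both fractions, and without total HTT-deleted replicate 1 its log2 fold change in total RNA went from 0.40 to 0.03. The 16 H2B genes besides these 3 summed to 47.7, 56.3 and 53.5 CPM in total RNA of controls and to 89.2, 52.4 and 51.9 in HTT-deleted cells. Their sums on ribosomes were 78.8, 74.0 and 67.6 against 72.1, 79.5 and 76.1 CPM, again overlapping. Most of that is Hist1h2bc. The 15 H2B genes without it summed to 6.22, 7.17 and 5.53 CPM in total RNA of controls and to 4.42, 6.44 and 4.57 in HTT-deleted cells, lower in each pair with overlapping groups. On ribosomes these 15 summed to 7.07, 6.51 and 4.84 CPM against 6.83, 6.36 and 6.96, lower in 2 of the 3 pairs. Hist1h2be was at 1.47 to 2.85 CPM over both control groups and 1.33 to 3.26 over both HTT-deleted groups, Hist1h2bg at 0.64 to 1.18 and 0.28 to 1.25, and Hist2h2be at 1.67 to 2.82 and 1.20 to 2.38. Hist1h2bh, tested on ribosomes only, was at 0.18 to 0.43 CPM there in controls and 0.32 to 0.44 in HTT-deleted cells. None of the tested H2B genes besides the pair passed the test in either fraction, with or without the block.

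Hist1h2ad, the H2A gene that starts 184 bases from Hist1h2bf, was at 1.11, 1.34 and 1.03 CPM in total RNA of controls and 0.72, 1.53 and 1.22 in HTT-deleted cells. Its log2 fold change was 0.02 (SE 0.37), and its groups overlapped. On ribosomes it was at 0.43, 0.69 and 0.20 CPM in controls and 0.14, 0.41 and 0.26 in HTT-deleted cells, too low for the test there. There control culture 3 was the lowest and culture 2 the highest of the controls, as for Hist1h2bf, and HTT-deleted cells were lower in pairs 1 and 2 and higher in pair 3. The nearest genes of Hist1h2bm and Hist1h2bb, Hist1h2aj and Hist1h3c, did not pass the filter.

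Over all members, 25 passed the filter in at least 1 of the comparisons of HTT-deleted with control cells. In total RNA 21 were tested. None was called by edgeR's quasi-likelihood test, as none of the 14759 genes was (0% called; 44 at an unadjusted p under 0.05). The median log2 fold change of the 21 was -0.20 beside 0.01 for all genes tested, with 8 above 0 and 13 below. Without Hist1h2bf and Hist1h2bm it was -0.08, ranging from -0.25 to 0.07 when 1 library was left out. Groups did not overlap for 4 of the 21, beside 4.21% of all genes: Hist1h2bf, Hist1h2bm and Hist1h4d were lower, beside 2.6% of all genes, and Hist2h3c2 was higher, beside 1.61%.

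In ribosome-associated RNA 22 members were tested. None was called without the block, as for all 14588 genes (0%; 110 at an unadjusted p under 0.05). With the block 2 were called, Hist1h2bf and Hist1h2bm, beside 1.69% of all genes. Their groups were also the only ones among the 22 that did not overlap, beside 5.44% of all genes (2.82% lower and 2.63% higher). The median was -0.08 for the 22 and -0.04 without the pair, beside 0.00 for all genes.

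Of the linker histone genes, Hist1h1c was at 115, 145 and 85.7 CPM in total RNA of controls and 231, 118 and 84.5 in HTT-deleted cells. Only HTT-deleted replicate 1 lay above the controls, and without it the log2 fold change went from 0.37 (SE 0.41) to -0.18. On ribosomes Hist1h1c was at 187, 204 and 111 CPM against 159, 180 and 108, a little lower in each HTT-deleted culture than in the control of its number (log2 fold change -0.15, SE 0.08, with the block; edgeR adjusted p = 0.554).

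Hist1h1e, another linker gene, had 0.06 CPM in total HTT-deleted replicate 1, from 1 count, and 0.90 to 1.74 CPM in the other 11 libraries. Its log2 fold change of -0.79 (SE 0.74) in total RNA became -0.26 without that library. Hist1h1d was at 1.96 to 5.09 CPM in total RNA of controls and 2.13 to 2.45 in HTT-deleted cells, within the control range.

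Among H2A genes, Hist1h2al was at 6.35, 9.99 and 5.75 CPM in total RNA of controls and 12.6, 8.78 and 6.11 in HTT-deleted cells. Hist3h2a was at 4.65, 3.51 and 3.91 CPM against 4.86, 3.71 and 2.55, and Hist2h2aa2 at 2.00, 1.68 and 1.55 against 0.77, 2.13 and 1.59. Hist1h2ac was at 0.95 to 2.27 CPM in total RNA of controls and 0.80 to 1.27 in HTT-deleted cells (log2 fold change -0.43, SE 0.46), and at 1.12 to 1.56 against 0.96 to 1.73 on ribosomes. Hist1h2ae and Hist1h2ao, tested on ribosomes only, were at 0.46 to 0.56 and 0.49 to 0.83 CPM in controls and 0.52 to 0.87 and 0.50 to 0.66 in HTT-deleted cells. On ribosomes the fold changes of the tested H2A genes ran from -0.11 (Hist3h2a) to 0.42 (Hist1h2ae) on the log2 scale. None passed the test and all groups overlapped.

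Of the H3 genes, Hist2h3c2 was at 3.31, 3.16 and 3.17 CPM in total RNA of controls and 9.17, 4.15 and 4.52 in HTT-deleted cells. The log2 fold change was 0.93 (SE 0.37; edgeR adjusted p = 0.978), and 0.44 without HTT-deleted replicate 1. On ribosomes the order was not the same, at 5.45, 4.86 and 3.69 CPM against 3.39, 4.42 and 3.64. The difference of its ribosome to total ratio between the conditions was -1.17 on the log2 scale (SE 0.42), the smallest p of the tested members, and did not pass over 15574 genes (edgeR unadjusted p = 0.019, adjusted p = 1.00). Without total HTT-deleted replicate 1 it was -0.70. Hist1h3d was at 2.59, 4.55 and 1.99 CPM in total RNA of controls and 3.20, 2.78 and 2.82 in HTT-deleted cells, and Hist1h3b, tested on ribosomes only, at 0.68, 1.10 and 0.59 against 0.23, 0.37 and 0.77.

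The H4 gene Hist1h4h was at 4.90, 8.34 and 2.87 CPM on ribosomes of controls and 2.38, 4.13 and 2.43 in HTT-deleted cells, lower in each of the 3 pairs. With the block its log2 fold change was -0.77 (SE 0.20; edgeR adjusted p = 0.063), which did not pass the threshold. In total RNA it was at 2.85, 5.74 and 2.69 CPM against 6.57, 2.56 and 3.29, with no common direction. Hist1h4i, the most counted H4 gene, was at 13.1, 7.07 and 13.1 CPM in total RNA of controls and 27.0, 5.84 and 11.3 in HTT-deleted cells. On ribosomes it was at 17.9, 8.21 and 13.0 against 13.9, 5.29 and 13.6. Without ribosome control replicate 1 its log2 fold change there went from -0.25 to 0.05. Hist1h4i was low in culture 2 of both conditions, the culture in which Hist1h2bf was highest. Hist1h4d was at 0.65, 1.19 and 0.52 CPM in total RNA of controls and 0.39, 0.44 and 0.42 in HTT-deleted cells, lower without overlap, with a log2 fold change of -0.86 (SE 0.45; edgeR adjusted p = 0.978). Hist1h4n was at 0.30 to 0.79 CPM against 0.17 to 0.64 in total RNA and at 0.31 to 0.78 against 0.37 to 0.63 on ribosomes, and Hist2h4, tested in total RNA, at 0.64 to 0.69 against 0.28 to 1.28, all overlapping.

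**Figure D3:**
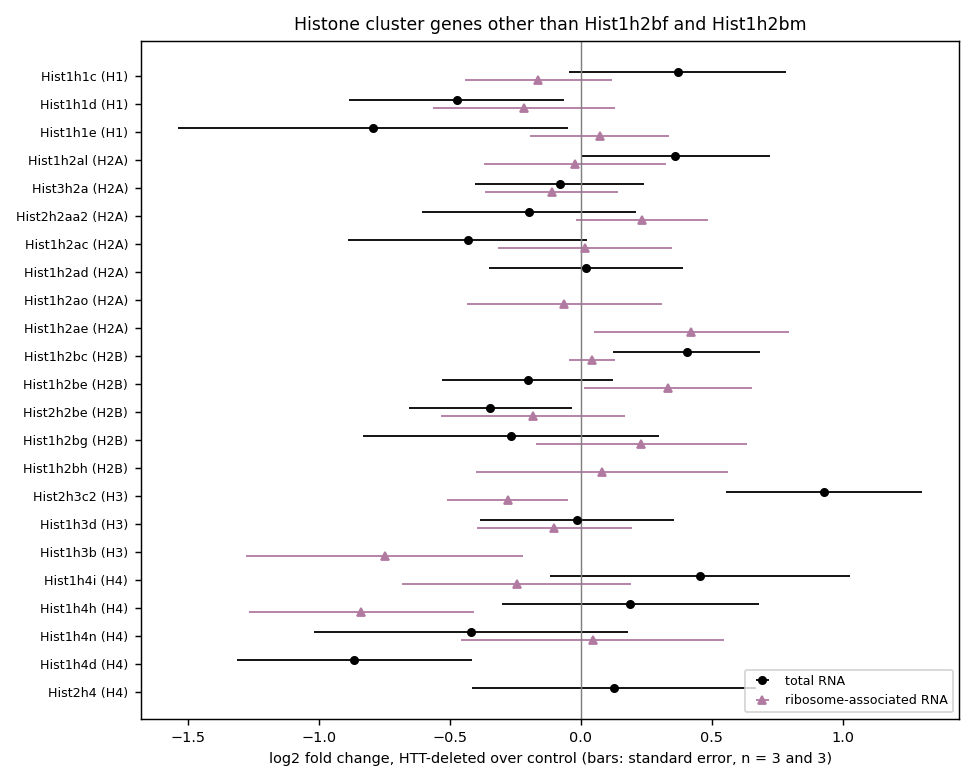
Log2 fold change of HTT-deleted over control (horizontal axis, bars show the standard error, n = 3 and 3) in total RNA (circles) and ribosome-associated RNA (triangles) for the members tested in either fraction other than Hist1h2bf and Hist1h2bm, which lie at -7.37 to -6.83 and -8.73 to -7.36. Most bars reach 0 and no gene shown passed the test.

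In total HTT-deleted replicate 1 the most counted members were high. The 7 most counted members besides Hist1h2bf and Hist1h2bm, which held 87.8% of the members' counts, were each highest there among the 6 total libraries: Hist1h1c, Hist1h2bc, Hist1h4i, Hist1h2al, Hist3h2a, Hist2h3c2 and Hist1h4h. The 60 members outside these 7 and the 3 H2B genes summed to 17.8 CPM in it, below the 19.6 to 32.2 of the other 5 total libraries. Members with few counts did not all go one way: Hist1h2ao, Hist1h4a, Hist1h2ae and Hist1h2bh, at 0.99, 0.77, 0.55 and 0.50 CPM, were also highest in it among total libraries. The sum over all 70 members was 394 CPM in that library, 213 and 181 in the other HTT-deleted ones and 228, 285 and 184 in controls. On ribosomes it was 351, 387 and 228 CPM in controls and 278.6, 313 and 231 in HTT-deleted cells. The 7 genes were grouped, and these 4 named, after their values were seen. Without that library the log2 fold change in total RNA went from 0.45 to -0.37 for Hist1h4i, from 0.19 to -0.34 for Hist1h4h, from 0.36 to 0.03 for Hist1h2al and from -0.08 to -0.35 for Hist3h2a. It went from -0.20 to 0.10 for Hist2h2aa2, from -0.27 to 0.10 for Hist1h2bg, from -0.42 to -0.05 for Hist1h4n and from 0.13 to 0.50 for Hist2h4. None of these was called with or without it.

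**Figure D4:**
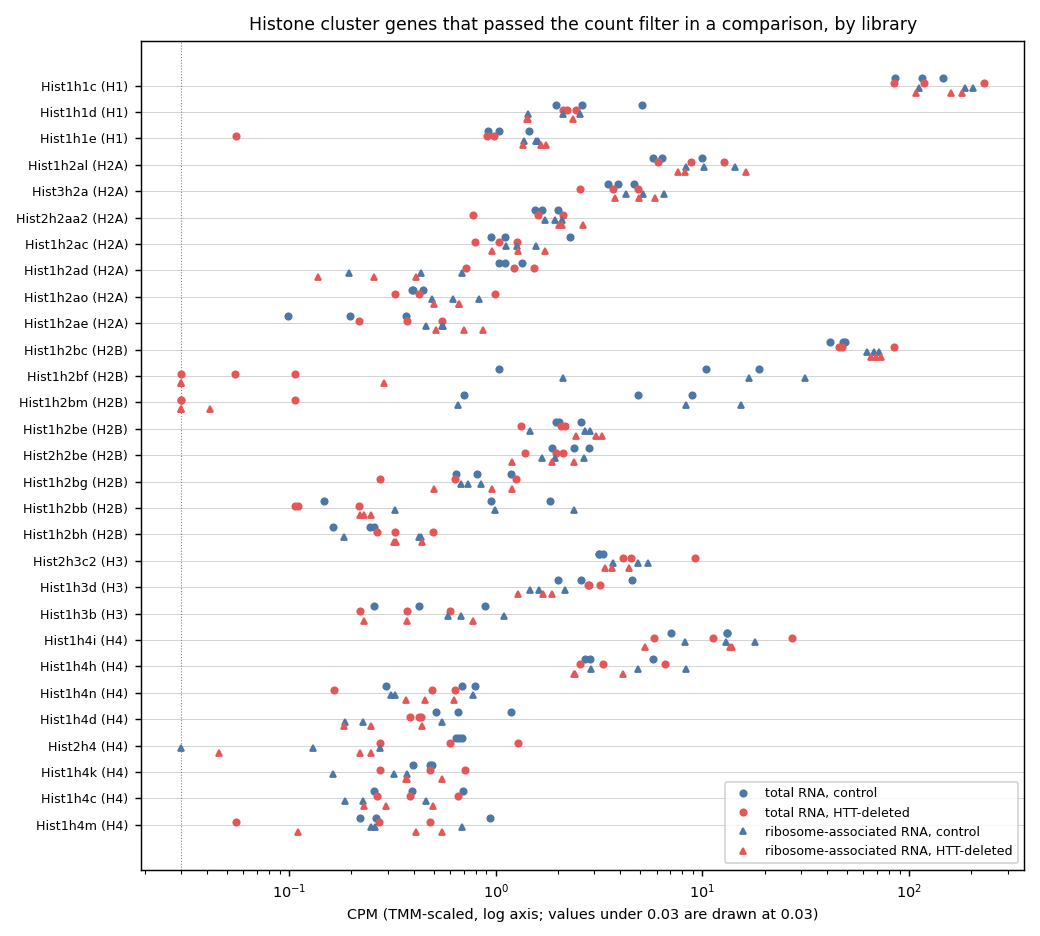
CPM (horizontal log axis, TMM-scaled; values under 0.03 drawn at 0.03) of the 29 members that passed the count filter in at least 1 comparison, with 1 point per library, 3 libraries per group, colour for the condition and shape for the fraction. Hist1h2bf and Hist1h2bm are the rows in which HTT-deleted points lie far to the left of all control points, and total HTT-deleted replicate 1 is the rightmost red circle for Hist1h1c at 231.

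The authors' deposited table, whose name speaks of RUVSeq and edgeR, lists 33 members in total RNA and 37 on ribosomes. Of the 33, the authors' deposited table has 5 under a false discovery rate of 0.05 in total RNA, beside 4.97% of the 16974 genes listed (2.69% lower and 2.29% higher). These were Hist1h2bf (-7.33), Hist1h2bm (-6.66), Hist1h2bb (-2.57) and Hist1h1e (-1.39) as lower and Hist2h3c2 (0.83) as higher in log2 fold change in the authors' deposited table. For ribosome-associated RNA the authors' deposited table has 4 of 37 past that rate, beside 4.21% of 16235 genes (1.09% lower and 3.12% higher), all lower: Hist1h2bf (-7.29), Hist1h2bm (-8.64), Hist1h2bb (-2.25) and Hist1h4h (-0.77). The change of Hist1h1e shrank without total HTT-deleted replicate 1 in the fits described above, as did that of Hist2h3c2.

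Ribosome-associated and total RNA of control cells were compared next, to see how the transcripts divide between ribosomes and the whole cell. Of 25 members tested, Hist1h2bc alone was called by edgeR's quasi-likelihood test without the block, beside 25% of 14990 genes. It was higher on ribosomes, by 0.54 on the log2 scale (SE 0.10, adjusted p = 0.0093), with ratios of 1.73, 1.37 and 1.31 in cultures 1 to 3. With the culture as a block 12 of the 25 were called, beside 50.2% of all genes, so the members' share was near the background. The median over members was 0.33 beside 0.02 for all genes. Values without the block shifted when ribosome control replicate 1, which leaned to short genes, was left out. The log2 value went from 0.54 to 0.50 for Hist1h2bc and from 0.53 to 0.46 for Hist1h1c. For Hist1h4i it went from 0.22 to -0.06, and for Hist2h4 from -2.19 to -1.73.

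With the block 7 members were higher on ribosomes, beside 24.4% of all genes: Hist1h1c, Hist1h2al, Hist1h2bc, Hist1h2bf, Hist1h2bm, Hist1h4h and Hist2h3c2. Hist1h1c had ratios of 1.62, 1.40 and 1.30 (log2 0.52, SE 0.08, edgeR adjusted p = 9.4e-05). Hist1h2bf had ratios of 1.60, 1.68 and 2.06 (log2 0.74, SE 0.12, edgeR adjusted p = 1.5e-04), similar across cultures whose levels differed widely. Hist1h2bm had ratios of 1.72, 1.73 and 0.93 (log2 0.66, SE 0.17, edgeR adjusted p = 0.0048), the last from 20 counts on ribosomes.

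Lower on ribosomes with the block were 5 members, beside 25.9% of all genes: Hist1h1d, Hist1h2ad, Hist1h3d, Hist1h4d and Hist2h4. Hist1h2ad had ratios of 0.39, 0.52 and 0.19 (log2 -1.499, SE 0.39, edgeR adjusted p = 0.0057), so that the divergent neighbours Hist1h2ad and Hist1h2bf fell on opposite sides. These ratios rest on only 7, 15 and 6 counts of Hist1h2ad on ribosomes, and 32.9% of its 50-base words were distinct. Hist2h4 had ratios of 0, 0.43 and 0.20, with no count on ribosomes in replicate 1 (log2 -2.22, SE 0.60, edgeR adjusted p = 0.0069). Hist1h1d and Hist1h3d had ratios of 0.50 to 0.80 and 0.47 to 0.74. The annotated transcripts of Hist1h1d, Hist1h3d, Hist1h4d and Hist2h4 run on for 4884, 752, 770 and 1257 bases past the stem-loop and that of Hist1h2ad for 42. Among members higher on ribosomes, those of Hist1h1c and Hist2h3c2 run on for 840 and 377 bases and those of Hist1h4h, Hist1h2bm and Hist1h2bf for 46, 46 and 29, so the lengths of both sides overlapped.

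**Figure D5:**
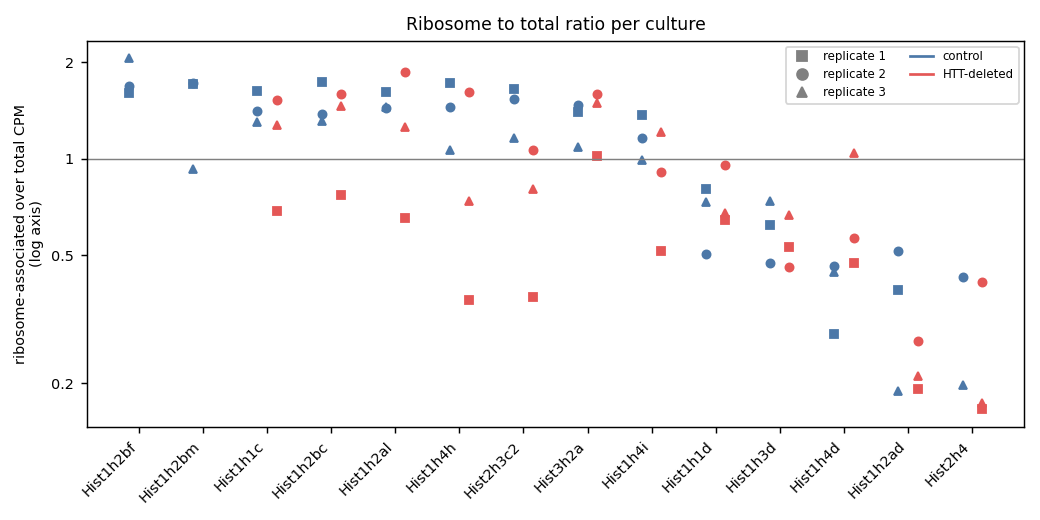
Ratio of ribosome-associated to total CPM within each culture (log axis, the line marks equal levels) for 14 members, with colour for the condition and shape for the replicate. Ratios of 0 and those of Hist1h2bf and Hist1h2bm in HTT-deleted cells, which had too few counts, are not drawn. Hist1h1c, Hist1h2bc and Hist1h2al lie above 1 in all cultures except HTT-deleted replicate 1, and Hist1h2ad and Hist2h4 lie below 1 in all cultures drawn.

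In HTT-deleted cells 19 members were tested and none was called, beside 0.896% of 14627 genes (1785 at an unadjusted p under 0.05). DESeq2 called Hist1h2ad there, lower on ribosomes (log2 -2.09, adjusted p = 0.035). Its ratios of 0.19, 0.27 and 0.21, from 3, 10 and 7 counts on ribosomes, lay near or below those of controls. Hist1h1c had ratios of 0.69, 1.53 and 1.27 and Hist1h2bc of 0.77, 1.59 and 1.46. Replicate 1 was the low one for both, in the culture whose total library stood apart. Without that library edgeR called Hist1h2bc (log2 0.56, adjusted p = 0.013) and Hist1h2ad (log2 -2.32, adjusted p = 0.031), and 3008 genes in all in place of 131. The effect of deletion on the ratio was tested over all 12 libraries in 28 members, and none was called, as none of the 15574 genes was (0%; 85 at an unadjusted p under 0.05). The median over members was 0.10 beside 0.01 for all genes. The H4 genes Hist1h4c, Hist1h4k and Hist1h4m passed the filter in this comparison alone of those described, with differences of 0.23 (SE 0.78), 0.53 (SE 0.64) and 0.57 (SE 1.17) on the log2 scale.

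Genes that make, carry or accompany these histones were taken as lists. Of factors for transcription and processing of histone transcripts, 20 of 22 were tested and none was called in total RNA or on ribosomes, with medians of 0.03 and 0.02 on the log2 scale beside 0.01 and 0.00 for all genes. Slbp was at 32.8, 29.3 and 35.9 CPM in total RNA of controls and 39.7, 29.2 and 31.4 in HTT-deleted cells (log2 0.07, SE 0.18), and Npat at 38.3, 37.3 and 38.4 against 18.01, 34.8 and 38.2 (-0.31, SE 0.26), low in the library that stood apart. The smallest p in total RNA were those of Lsm10 (0.60, SE 0.24), a subunit of the U7 particle that cuts histone transcripts, Ncbp2 (0.21, SE 0.16), of the cap-binding complex, and Snrpb (0.31, SE 0.23). On ribosomes they were those of Cpsf2 (0.20, SE 0.09), of the cleavage complex, Lsm11 (-0.24, SE 0.14) and Eri1 (0.11, SE 0.10), an exonuclease of the stem-loop end.

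Of S phase and proliferation genes, 31 were tested and none was called, with medians of 0.07 in both fractions and 22 and 21 above 0. Their sum ran from 1005 to 1098 CPM in total RNA of controls and from 996 to 1083 in HTT-deleted cells. Control culture 3, low in Hist1h2bf and Hist1h2bm, had a sum of 1098 CPM, the highest of the 3. Whether this sum goes with the level of the pair was not tested. The smallest p were those of Fen1 (0.48, SE 0.33), Lig1 (0.23, SE 0.16) and E2f1 (0.22, SE 0.17) in total RNA and of Mki67 (0.27, SE 0.14), E2f2 (0.59, SE 0.31) and Ccne1 (-0.19, SE 0.11) on ribosomes.

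The 17 histone chaperones, which carry histones to DNA, had medians of 0.05 and -0.01 with none called. Hat1 (0.35, SE 0.25), Asf1a (0.24, SE 0.18) and Hira (0.52, SE 0.44) had the smallest p in total RNA, and Asf1a (-0.14, SE 0.09), Cabin1 (0.15, SE 0.11) and Ipo4 (-0.11, SE 0.09) on ribosomes. The 11 variant histones, most of which are made outside S phase as well, had 10 above 0 in total RNA (median 0.29) and 2 above 0 on ribosomes (-0.05), with none called. Their sum was 1936 CPM in total HTT-deleted replicate 1 and 1213 to 1314 in the other total libraries. H2afz (0.45, SE 0.31), Cenpa (0.39, SE 0.28) and H2afj (0.62, SE 0.47) led in total RNA, and H1fx (-0.38, SE 0.17), H2afx (-0.15, SE 0.10) and H2afv (-0.09, SE 0.09) on ribosomes. In the comparison of ribosome-associated with total RNA of controls, 4 of the 11 were higher, beside 10% of all genes, and none lower, beside 15%. With the block 9 were higher, beside 24.4% of all genes.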

How the data were processed

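RNA of 12 libraries was analysed. The files the authors deposited hold raw counts of reads for each Ensembl gene, made with STAR 2.7.2b and HTSeq 0.11.1 on GRCm38 per the submitters' processing notes. The labels give no annotation release or strand setting. The authors' deposited table of comparisons holds log2 fold changes, a p-value, a likelihood ratio score and a false discovery rate per gene. The 5 summary entries per library that name no gene were left out of sizes and tests.

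Counts were TMM-scaled, filtered with filterByExpr and tested with edgeR 4.0.16 (R 4.3.3) by the quasi-likelihood test with robust fitting, over all genes, with calls under a Benjamini-Hochberg adjusted p of 0.05. Each SE was taken from the log2 fold change and its F statistic (change over root F). Exact 95% intervals of count ratios and the floor of 3 counts cover counting error only. Depth per library was 16789356 to 30571501 counts, which is thin for most members. The test was run on simulated counts with the same spread for every gene, no differences between cultures and no library that stood apart. That run does not measure its power in these data.

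The replicate numbers were taken to pair the samples. Same-numbered libraries deviated together from their group means (correlations across genes of 0.23 to 0.58 in total RNA and 0.53 to 0.70 on ribosomes between conditions, and 0.35 to 0.74 between fractions), and both fractions of a culture come from 1 suspension per the labels. Blocked values are given where they change a call.

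All members that passed the filter were named, with Htt, Slbp, Npat and, of each list, the 3 genes with the smallest p in each fraction. The members and lists were chosen with earlier results of these data known. Transcripts, lengths and stem-loops came from GENCODE vM21 on GRCm38, and promoters from RefSeq on GRCm38.p6. Of the processing factors, 20 of 22 symbols matched. Alternatives were other scalings and filters, DESeq2 1.42.0, the block and each library left out.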

Additional observations from a re-analysis of the deposited data

How the results depend on the processing

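The number of histone genes called was 0 for HTT-deleted against control in total RNA and on ribosomes and 0 for the ratio between fractions under RLE and upper quartile scaling, without the filter on low counts, with a filter of 5 CPM in 3 libraries and with each library left out (0 to 0). DESeq2 raised it to 2 in total RNA and 1 on ribosomes, and over all genes to 3 and 1. The replicate block, which follows the pairing, raised it to 2 on ribosomes and from 1 to 12 for ribosome-associated against total RNA of controls, and over all genes to 247 and from 3746 to 7530. For the latter comparison the count was 2 without the filter, with Hist2h4 (log2 -2.17) as the second, and 1 to 3 with a library left out (3 without ribosome control replicate 2, with Hist1h2ad and Hist2h4 added), while all genes gave 1509 to 3251. In HTT-deleted cells it was 1 with DESeq2 and 0 to 2 with a library left out, the latter without total HTT-deleted replicate 1. All genes gave 131 there, 866 with DESeq2, 208 without the filter, 86 with the filter of 5 CPM and 0 to 3008 with a library left out. Without the filter, total RNA gave 1 gene, Htt.

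The median over tested members without Hist1h2bf and Hist1h2bm turned from -0.08 to 0.40 in total RNA with the filter of 5 CPM, and from 0.18 to -0.49 for the ratio between fractions, and went from 0.22 to 0.52 for ribosome-associated against total RNA of controls. The filter of 5 CPM leaves out the many members below that level, so these medians are over fewer genes than the main ones. Hist1h1c, Hist1h2bc, Hist1h4i and Hist1h2al lay above 5 CPM in all total libraries. Their log2 fold changes in total RNA were 0.37, 0.40, 0.45 and 0.36 in the main fit. Fold changes of single members turned their sign in 20 of 124 values with a library left out in total RNA and in 25 of 129 on ribosomes, in 12 and 13 genes, none of them called. Hist1h2bf and Hist1h2bm stayed lower in HTT-deleted cells in each of these, at -11.6 to -6.52 and -10.6 to -6.06. No test was made of 41 of 70 members, which passed the filter in no comparison. They had at most 77 counts over the 12 libraries and a group mean of at most 0.49 CPM, and some of them share all their 50-base words with other genes.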
